A study of Mus musculus with 18 samples.

Results

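The fetal and stress genes of the heart are 10 genes whose re-expression in the adult ventricle is a widely used sign of cardiac load: the natriuretic peptides *Nppa* and *Nppb*, the myosin heavy chains *Myh7* and *Myh7b*, skeletal actin *Acta1*, the stress-responsive ankyrin repeat protein *Ankrd1*, the atrial light chains *Myl4* and *Myl7*, slow troponin I *Tnni1* and beta-tropomyosin *Tpm2*. They were chosen by name, and each peak annotated with one of these symbols was taken, together with the peaks that carry no symbol and have their centre inside the interval of such a gene. This gave 40 of 101256 peaks. Of these, 22 carried a member symbol, 9 carried only the identifier of another gene and 9 carried no gene. Peaks were found for 8 of the 10 genes, and none was annotated with *Myl4* or *Myl7*.

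The fetal mouse ventricle makes sarcomeres with *Myh7* and *Tnni1*, which give way to *Myh6* and *Tnni3* around and after birth, and *Acta1*, *Myl4* and *Myl7* are expressed in the developing heart beside the isoforms that prevail in the adult ventricle, *Actc1*, *Myl3* and *Myl2*. Under pressure load or failure, part of the fetal set is transcribed again, and *Nppa* and *Nppb* encode hormones that the stretched heart releases to lower blood volume and pressure. *Ankrd1* is a nuclear and sarcomeric protein that is induced by stretch.

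ChIP-seq of mouse ventricles targeted RNA polymerase II (Pol II) and CTCF, a DNA-binding protein of insulators and loop anchors, each in 2 libraries for every genotype, and used IgG in 1 library for each. Hearts were WT, *Trdn-as* KO, in which a polyA cassette in the first exon of the antisense RNA stops its transcription, and Mettl3lox/lox:alphaMHC-MerCreMerpos (*Mettl3* KO), in which tamoxifen-activated Cre driven by a cardiomyocyte promoter removes the m6A methyltransferase. The *Trdn-as* line was made through embryonic stem cells and crossed to C57BL/6. According to the methods, ventricles from 2 adult hearts were pooled, and nothing states that replicate libraries came from separate hearts, so p-values measure the spread between libraries, which may be technical. The labels do not say whether the WT hearts received tamoxifen. The values are the authors' read counts per peak divided by a size factor per library, called values below, and comparisons used limma on log2(value + 1), whose fold changes understate the change of weak peaks.

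The Pol II libraries held 1991582 to 4950132 reads in peaks, and the second *Trdn-as* KO library stood apart with 18.6% of its uniquely mapped reads in peaks against 35.6 to 42.5% in the other 5. At the promoter of the disrupted *Trdn-as* gene, Pol II values were 530 and 595 (WT) and 140 and 100 (*Trdn-as* KO). The promoter of *Mettl3* lies outside the floxed part and does not check that label, but peaks inside *Esr1*, whose sequence is part of MerCreMer, summed to 759 and 829 in *Mettl3* KO and to 11 to 21 in the other 4 Pol II libraries. Values on chromosome Y were 0 in all libraries of *Trdn-as* KO and 50 to 326 in the Pol II, CTCF and IgG libraries of WT and *Mettl3* KO, so sex and the *Trdn-as* genotype cannot be told apart. The cardiomyocyte markers were strong, with 7 of 7 genes having peaks and a summed Pol II value of 20914 to 28097, and the atrial markers had peaks for 5 of 6 genes with a sum of 441 to 604, with none at *Sln*.

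The promoters of the natriuretic peptide genes and of the 2 other genes at which Pol II differed between genotypes are shown as the 250 bases before the RefSeq start site in GRCm38.p6, on the strand of the gene. Capitals mark TATAAA and CATTCC on either strand, where GGAATG is CATTCC read on the other strand. CATTCC is the MCAT element that TEAD factors bind. *Nppb* lies on chromosome 4, plus strand, bases 147985650 to 147985899, *Nppa* on chromosome 4, plus strand, 148000472 to 148000721, *Myh7* on chromosome 14, minus strand, 54994627 to 54994876, the farther upstream of 2 annotated start sites, and *Ankrd1* on chromosome 19, minus strand, 36119845 to 36120094.
Nppb: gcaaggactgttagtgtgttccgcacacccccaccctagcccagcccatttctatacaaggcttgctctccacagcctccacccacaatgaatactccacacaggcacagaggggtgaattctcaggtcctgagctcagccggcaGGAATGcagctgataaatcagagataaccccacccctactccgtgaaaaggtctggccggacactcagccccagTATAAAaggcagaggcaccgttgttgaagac
Nppa: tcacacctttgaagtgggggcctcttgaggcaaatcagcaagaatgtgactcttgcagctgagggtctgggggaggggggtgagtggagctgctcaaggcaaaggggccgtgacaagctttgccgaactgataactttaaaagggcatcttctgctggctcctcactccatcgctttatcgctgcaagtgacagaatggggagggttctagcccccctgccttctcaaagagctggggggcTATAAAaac
Myh7: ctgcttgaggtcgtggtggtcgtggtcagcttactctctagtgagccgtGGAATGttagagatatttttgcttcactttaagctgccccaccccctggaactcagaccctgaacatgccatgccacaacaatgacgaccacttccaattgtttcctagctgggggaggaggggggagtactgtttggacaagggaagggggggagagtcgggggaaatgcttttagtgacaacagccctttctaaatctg
Ankrd1: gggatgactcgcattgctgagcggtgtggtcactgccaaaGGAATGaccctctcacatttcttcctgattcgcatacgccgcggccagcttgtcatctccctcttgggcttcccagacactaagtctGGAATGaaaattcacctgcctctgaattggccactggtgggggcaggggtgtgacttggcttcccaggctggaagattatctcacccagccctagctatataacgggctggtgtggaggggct

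The 10 genes had 12 promoter windows of 300 bases, which reach 50 bases past the start site, and genes are counted here while shares are of windows. CATTCC was found for 5 of the 10 genes, in 5 of 12 windows (*Acta1*, *Ankrd1*, *Myh7*, *Myl7* and *Nppb*) and in 14.7% of all 32851 promoter windows. *Ankrd1* held it at bases -210 to -205 and -123 to -118 and *Nppb* at -105 to -100 from the start site. TATAAA was found for *Acta1*, *Nppa* and *Nppb* and in 13.6% of all windows. A CArG box, the sequence bound by serum response factor, was found for *Acta1* and *Myl7* and in 1.63% of all windows. GATAAG was found for *Myl7* and in 7.44% of windows, and CACGTG, which is also a CANNTG, for *Myh7b* and in 7.15%. CANNTG was found for 9 of the 10 genes, in 11 of 12 windows, and in 72.3% of windows. No member window held a MEF2 site, found in 3.19% of windows and able to overlap TATAAA. These matches describe the letters of the windows and not binding.

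The 3 myosin genes host related microRNAs, which are shown because Pol II on *Myh7*, *Myh6* and *Myh7b* cannot be told apart from Pol II on the microRNA precursor. The mature RefSeq sequences lie inside the host genes in GRCm38.p6, at chr14:54975710-54975731 (minus strand), chr14:54949072-54949093 (minus strand) and chr2:155622893-155622913 (plus strand), in the order shown. Bases 2 to 8, the seed, are in capitals.
mmu-miR-208b-3p, in *Myh7*: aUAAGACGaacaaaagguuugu
mmu-miR-208a-3p, in *Myh6*: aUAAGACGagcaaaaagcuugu
mmu-miR-499-5p, in *Myh7b*: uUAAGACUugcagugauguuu
The miR-208 pair shared the seed and differed at 3 of 22 bases, and the seed of miR-499-5p differed from theirs at 1 of 7 bases.

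In WT ventricles, the level of Pol II per kb of peak followed the order *Myh7*, *Nppb*, *Ankrd1*, *Myh7b*, *Tpm2*, *Nppa*, *Acta1* and *Tnni1*. *Myh7* had 227 per kb as a mean of the 2 WT libraries, at percentile 91.0 of the 13979 genes with a peak. *Nppb* followed with 171 per kb (percentile 76.3), *Ankrd1* with 128 (59.7) and *Myh7b* with 112 (53.0). *Tpm2* with 62.7 per kb (32.6), *Nppa* with 59.1 (31.1) and *Acta1* with 44.0 (24.8) overlapped between neighbours in the WT libraries. Most of the *Nppa* value came from a peak beyond its 3′ end. *Tnni1* was lowest with 16.5 per kb (13.9). The 4 genes above *Tpm2* did not overlap with their neighbours in this order. The plot of Pol II values by library shows the sums of each gene, which are not scaled to length.

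**Figure D1:**
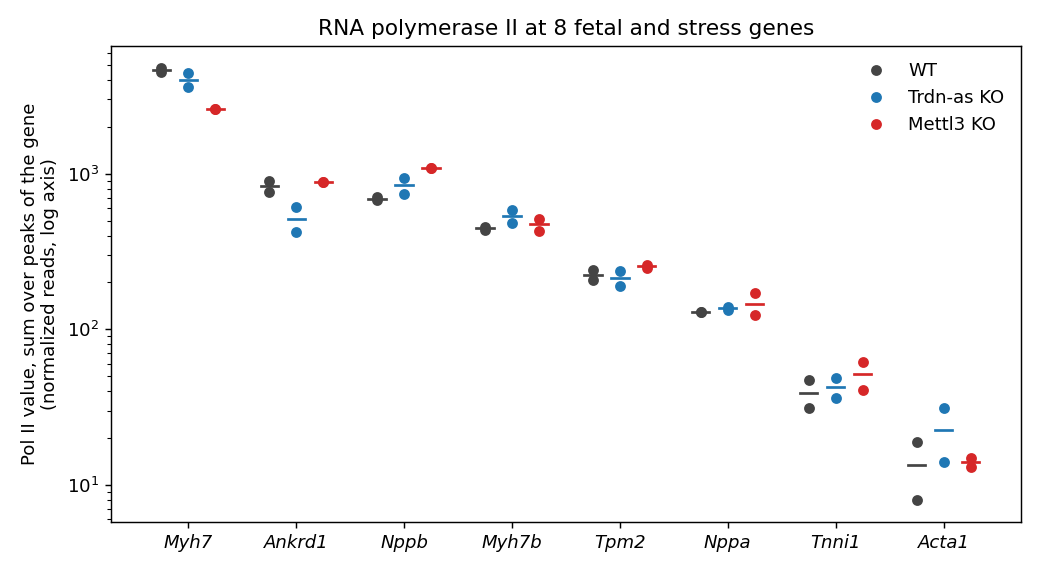
Pol II values summed over the peaks annotated with each gene (y axis, normalized reads, log scale) for 8 genes (x axis), with 1 point per library, coloured by genotype, and a line at the mean of the 2 libraries. *Myh7* was at 2586 and 2617 in *Mettl3* KO and at 3581 to 4807 in the other 4 libraries, and *Acta1* stayed between 8 and 31.

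*Myh7* encodes the slow beta-myosin heavy chain, the main fetal ventricular isoform. Its promoter peak (chr14:55225460-55246065 in GRCm39), which covers the 5′ part of the gene and the sequence upstream of it, had Pol II values of 4531 and 4807 (WT), 4451 and 3581 (*Trdn-as* KO) and 2586 and 2617 (*Mettl3* KO). The *Mettl3* KO libraries lay below all others, and the *Trdn-as* KO libraries were below both WT libraries with a wide gap between them. Of all 52655 peaks tested, 10287 had both *Mettl3* KO libraries below both WT libraries, and 10051 both *Trdn-as* KO libraries. *Myh7* fell in *Mettl3* KO against WT with a log2 fold change of -0.84 (SE 0.099, adjusted p = 3.7e-08 over all peaks by limma), and against *Trdn-as* KO with -0.62 (SE 0.099, adjusted p = 5.3e-05). For *Trdn-as* KO the log2 fold change was -0.23 (95% interval -0.42 to -0.028, adjusted p = 0.56), and it was -0.38 without the first *Trdn-as* KO library (adjusted p = 0.00054) and -0.068 without the second (adjusted p = 0.59). With uniquely mapped reads as library size, *Myh7* differed from WT by -0.83 in *Trdn-as* KO and -0.98 in *Mettl3* KO, and the knockouts differed by -0.16 (adjusted p = 0.86). Without either *Mettl3* KO library the adjusted p between the knockouts rose to 0.30 or 0.49. *Myh7* has 1 peak with its symbol, so its gene sum holds the same values as this peak and is no second measure. Without 1 library of either genotype, the log2 fold changes in *Mettl3* KO against WT were -0.80 to -0.89. In these fits the fall was called when tested among gene sums but not when tested among peaks.

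IgG values at the *Myh7* promoter peak were 784 in WT, 617 in *Trdn-as* KO and 792 in *Mettl3* KO. Scaled to uniquely mapped reads, Pol II exceeded IgG 22.0-fold in WT, 13.6-fold in *Trdn-as* KO and 9.04-fold in *Mettl3* KO. IgG therefore did not fall with Pol II in *Mettl3* KO. The ratio was also lower in both knockouts at uncalled adult isoforms such as *Actc1* (37.7, 22.1 and 22.0) and *Myl2* (35.1, 17.7 and 20.1). In *Mettl3* KO it was higher than in WT at *Myl3* (10.3 against 9.45) and *Tnni3* (6.42 against 6.22). A lower ratio was thus not particular to *Myh7*. CTCF values there were 242 and 284 (WT), 320 and 312 (*Trdn-as* KO) and 248 and 287 (*Mettl3* KO). CTCF was higher in both *Trdn-as* KO libraries than in WT, with a log2 fold change of 0.27 (SE 0.082, adjusted p = 0.24), and differed by 0.025 (95% interval -0.15 to 0.20) in *Mettl3* KO.

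Farther along *Myh7*, the peak at chr14:55223068-55225384 had Pol II values of 174 and 222 (WT), 184 and 122 (*Trdn-as* KO) and 123 and 117 (*Mettl3* KO). The next peak, at chr14:55221763-55223011, had 89 and 104 (WT), 103 and 61 (*Trdn-as* KO) and 71 and 42 (*Mettl3* KO). Both peaks had lower values in *Mettl3* KO than in either WT library, with log2 fold changes of -0.71 (SE 0.23, adjusted p = 0.10) and -0.80 (SE 0.29, adjusted p = 0.15), neither of which passed the test. Other settings called the first in 3 cases (smallest adjusted p = 0.00066) and the second in 1 (adjusted p = 0.033). A further pair of peaks inside *Myh7*, which the file assigns to *Gm17428*, had Pol II values of 345 and 410 (WT), 323 and 228 (*Trdn-as* KO) and 252 and 237 (*Mettl3* KO) at the first and 350 and 450 (WT), 350 and 285 (*Trdn-as* KO) and 295 and 254 (*Mettl3* KO) at the second. At both, the *Mettl3* KO libraries and the second *Trdn-as* KO library lay below WT. ChIP-seq does not tell the strand, so Pol II on antisense transcripts of the locus cannot be told apart from Pol II on *Myh7*.

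*Myh6*, the adult alpha-myosin heavy chain gene, lies next to *Myh7* on the same strand. Its peak (chr14:55181949-55214903) overlaps the last 6763 nt of *Myh7* and had Pol II values of 10654 and 11527 (WT), 9901 and 7625 (*Trdn-as* KO) and 11283 and 11566 (*Mettl3* KO). The log2 fold change of *Myh6* was 0.044 in *Mettl3* KO (SE 0.11, adjusted p = 0.79) and -0.35 in *Trdn-as* KO (SE 0.11, adjusted p = 0.15). The log2 ratio of *Myh7* to *Myh6* within a library was -1.23 and -1.26 (WT), -1.15 and -1.09 (*Trdn-as* KO) and -2.12 and -2.14 (*Mettl3* KO). Within a library the ratio is free of the scaling between libraries, and the 3 genotypes did not overlap. *Mettl3* KO was lower than WT by 0.89 and *Trdn-as* KO higher than WT by 0.13 on the log2 scale, each with p = 0.33 in a two-sided exact permutation test, the smallest p that 2 against 2 libraries allow. The transgene that drives Cre carries the alpha-myosin promoter, and reads from it cannot be told apart from those of the promoter of *Myh6*. CTCF at the *Myh6* peak was 299 and 289 (WT), 340 and 322 (*Trdn-as* KO) and 455 and 480 (*Mettl3* KO). IgG there was 1003 in WT, 1057 in *Trdn-as* KO and 1354 in *Mettl3* KO. What the transgene adds to the ratio of *Myh7* to *Myh6* was not tested.

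**Figure D2:**
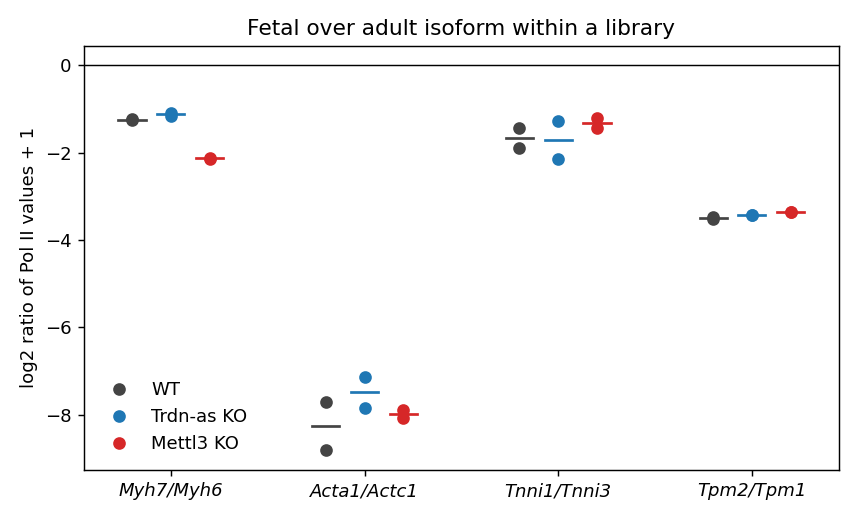
Log2 ratio of the Pol II value (+ 1) of a fetal isoform to that of its adult counterpart within the same library (y axis) for 4 pairs (x axis), with 1 point per library and a line at the mean of each genotype. The *Myh7*/*Myh6* ratio was -2.12 and -2.14 in *Mettl3* KO against -1.23 and -1.26 in WT, and the *Acta1*/*Actc1* ratio was below -7 in all 6 libraries.

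The other isoform pairs differed less or were limited by weak signal. For *Tpm2* over *Tpm1*, the main adult tropomyosin, the log2 ratio was -3.53 and -3.47 (WT), -3.44 and -3.43 (*Trdn-as* KO) and -3.36 and -3.36 (*Mettl3* KO). Neither knockout overlapped with WT in these sums, and the differences were 0.064 and 0.14 (exact p = 0.33 each). With only the highest peak of each gene, *Trdn-as* KO differed by 0.024 (exact p = 1), and without the first WT library by 0.033. For *Tnni1* over *Tnni3*, the adult troponin I, it was -1.91 and -1.45 (WT), -2.15 and -1.28 (*Trdn-as* KO) and -1.44 and -1.20 (*Mettl3* KO), with differences of -0.034 (exact p = 1) and 0.36 (exact p = 0.33). The second of these was 0.13 without the first WT library, 0.59 without the second and 0.22 with only the highest peak of each gene. *Acta1* over *Actc1*, the cardiac actin, had log2 ratios of -8.82 and -7.70 (WT), -7.15 and -7.84 (*Trdn-as* KO) and -7.89 and -8.08 (*Mettl3* KO), and the groups overlapped (exact p = 0.67 and 1). The adult partners themselves had summed Pol II values of 4063 and 4165 for *Actc1*, 119 and 130 for *Tnni3*, 2405 and 2668 for *Tpm1*, 5823 and 6333 for *Myl2* and 119 and 104 for *Myl3* in WT, and no call was made for them in either knockout against WT.

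*Nppb* encodes B-type natriuretic peptide. A single peak (chr4:148069698-148073740) covers the whole gene, with Pol II values of 673 and 706 (WT), 941 and 739 (*Trdn-as* KO) and 1089 and 1088 (*Mettl3* KO). Both *Mettl3* KO libraries lay above all others, and both *Trdn-as* KO libraries above WT, which turned to a log2 fold change of -0.33 with uniquely mapped reads as library size. Of all 52655 peaks tested, 16428 had both *Mettl3* KO libraries above both WT libraries, and 6778 both *Trdn-as* KO libraries. *Nppb* rose in *Mettl3* KO against WT with a log2 fold change of 0.66 (SE 0.14, adjusted p = 0.0046 over peaks, and 0.0014 over gene sums, where the sum is this same peak). In *Trdn-as* KO it was 0.27 (95% interval -0.0020 to 0.55, adjusted p = 0.65), and it was 0.45 without the second *Trdn-as* KO library (adjusted p = 0.029) and 0.10 without the first (adjusted p = 0.40). Median-of-ratios scaling (0.33, adjusted p = 0.042) and quantile normalization (0.30, adjusted p = 0.0044) also called it. *Mettl3* KO and *Trdn-as* KO differed by 0.38 (adjusted p = 0.13 over peaks and 0.079 over gene sums). Over gene sums this was called without the first *Trdn-as* KO library (0.56, adjusted p = 1.8e-05) and with median-of-ratios scaling (0.25, adjusted p = 0.047), and ran from 0.18 with quantile normalization to 0.84 when scaled to uniquely mapped reads.

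The median log2 fold change of all 12442 gene sums tested was 0.25 in *Mettl3* KO against WT, against 0.012 after quantile normalization, so the rise of *Nppb* was 0.66 beside a general 0.25. Leaving out any 1 library of either genotype left log2 fold changes of 0.62 to 0.69 but ended the call, with adjusted p-values of 0.35 to 0.82 over peaks. IgG values at *Nppb* were 107, 92 and 111 in WT, *Trdn-as* KO and *Mettl3* KO, and Pol II scaled to uniquely mapped reads exceeded IgG 23.8-, 19.2- and 27.1-fold. CTCF was weak at 34 to 40 in all 6 libraries, with log2 fold changes of 0.15 in *Trdn-as* KO (95% interval -0.15 to 0.46) and 0.079 in *Mettl3* KO (95% interval -0.22 to 0.38).

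Markers of fibroblasts were also higher in *Mettl3* KO than in WT, and a link with *Nppb* was not tested. Of 5 genes, 4 were called, beside 3.98% of all genes. *Col1a1*, *Col1a2*, *Pdgfra* and *Postn* rose by 1.24, 1.18, 0.92 and 1.01 on the log2 scale. *Dcn*, the fifth, was not called, with 248 and 292 (WT) and 381 and 414 (*Mettl3* KO). The summed Pol II value of the list was 1206 and 1297 (WT), 1681 and 1172 (*Trdn-as* KO) and 2463 and 2387 (*Mettl3* KO). The summed cardiomyocyte markers were 26145 and 28097 (WT) and 27338 and 27604 (*Mettl3* KO). In tissue, more cells of a type and more Pol II per cell cannot be told apart, and the part of cell composition in the result was not tested. The endothelial and leukocyte lists had no called gene in either knockout against WT, with sums of 863 to 1136 and 115 to 163, and *Pecam1* and *Csf1r* had no peak. Smooth muscle markers (5 of 5 with a peak, sum 193 to 293) and skeletal muscle markers (4 of 7 with a peak, 3 tested, sum 456 to 588) also had none called against WT, nor had the ventricular markers (3 of 3, sum 6220 to 7462). Between the knockouts, *Mettl3* KO was higher at 3 of 5 fibroblast markers (*Col1a2*, *Pdgfra* and *Col1a1*), beside 6.09% of all genes called. The same held for 1 of 5 smooth muscle markers (*Tagln*) and 1 of 7 cardiomyocyte markers (*Myh6*).

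*Nppa* encodes atrial natriuretic peptide, which in the adult is mostly an atrial product. It had 4 peaks, and the one with the most Pol II (chr4:148087938-148089338) starts beyond the 3′ end of the gene. Its values were 109 and 98 (WT), 110 and 108 (*Trdn-as* KO) and 111 and 146 (*Mettl3* KO). The peak over the start site had 18 and 27 (WT), 16 and 24 (*Trdn-as* KO) and 8 and 21 (*Mettl3* KO). The groups overlapped at the start site. At the downstream peak, as at 16428 of all 52655 peaks, both *Mettl3* KO libraries lay above WT, here one of them only just. *Trdn-as* KO overlapped with WT there. The log2 fold changes of the gene sum were 0.081 (95% interval -0.36 to 0.52) in *Trdn-as* KO and 0.16 (95% interval -0.28 to 0.60) in *Mettl3* KO. Most of this sum, 129 in each WT library, came from the downstream peak. At the start-site peak alone the log2 fold changes were -0.16 (95% interval -1.13 to 0.80) in *Trdn-as* KO and -0.71 (95% interval -1.68 to 0.25) in *Mettl3* KO. CTCF did not exceed 18 at any single *Nppa* peak in any library.

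*Ankrd1* carried Pol II over nearly its whole length in 2 peaks. The peak at the start of the gene (chr19:36091542-36098050) had 765 and 898 (WT), 607 and 419 (*Trdn-as* KO) and 879 and 882 (*Mettl3* KO). The peak at the 3′ end (chr19:36087544-36091266) extends past the end of *Ankrd1* and carries the identifier of another gene, without a symbol. It had 424 and 457 (WT), 245 and 187 (*Trdn-as* KO) and 345 and 331 (*Mettl3* KO). Pol II on that other gene cannot be told apart there from Pol II on *Ankrd1*. In both peaks the *Trdn-as* KO libraries were the lowest of the 6, and the *Mettl3* KO libraries were near WT at the start and below WT at the 3′ end.

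*Ankrd1* fell in *Trdn-as* KO against WT with log2 fold changes of -0.72 at the start (SE 0.15, adjusted p = 0.0086) and -1.04 at the 3′ end (SE 0.18, adjusted p = 0.00034). Scaled to uniquely mapped reads these were -1.32 and -1.64, and neither was called (adjusted p = 0.22 and 0.12). Against *Trdn-as* KO, *Mettl3* KO was higher by 0.80 (SE 0.15, adjusted p = 0.00084) and 0.66 (SE 0.18, adjusted p = 0.042). Without either *Mettl3* KO library neither of these was called (adjusted p = 0.36 to 0.63), and without the second *Trdn-as* KO library the 3′ end differed by 0.46 (adjusted p = 0.12). After quantile normalization it differed by 0.36, and by 1.11 when libraries were scaled to uniquely mapped reads (adjusted p = 0.33). Between *Mettl3* KO and WT the log2 fold changes were 0.087 (95% interval -0.21 to 0.39) and -0.38 (95% interval -0.74 to -0.022, adjusted p = 0.29), and 3 other settings called the second of these, with adjusted p-values of 0.00015 to 0.023. The second *Trdn-as* KO library, which had the lowest share of reads in peaks, was the lower at both peaks, and without it the log2 fold changes against WT were -0.45 at the start (adjusted p = 0.14) and -0.84 at the 3′ end, which was still called. Without either WT library, the adjusted p rose to 0.999 or more at the start and to between 0.60 and 0.67 at the 3′ end, with log2 fold changes of -0.60 to -0.83 and of -0.98 to -1.09.

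IgG at the *Ankrd1* start was 209 in WT, 177 in *Trdn-as* KO and 138 in *Mettl3* KO, and Pol II scaled to uniquely mapped reads exceeded it 14.7-, 6.16- and 17.5-fold. A lower ratio in *Trdn-as* KO was also found at uncalled adult isoforms such as *Actc1* and *Myl2*. CTCF at the 3′ peak was 125 and 120 (WT), 144 and 115 (*Trdn-as* KO) and 131 and 143 (*Mettl3* KO), and at the start 72 and 79, 90 and 74, and 78 and 86. CTCF at the start differed from WT by 0.11 (95% interval -0.14 to 0.37) in *Trdn-as* KO and 0.12 (95% interval -0.14 to 0.37) in *Mettl3* KO. CTCF stood little above IgG there, at 8.74 and 9.75 RPM (reads scaled to uniquely mapped reads) in WT against 4.96 RPM for IgG. At the 3′ peak, with 15.2 and 14.8 RPM against 2.72 for IgG, CTCF differed from WT by 0.071 (95% interval -0.15 to 0.29) in *Trdn-as* KO and 0.16 (95% interval -0.063 to 0.38) in *Mettl3* KO.

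**Figure D3:**
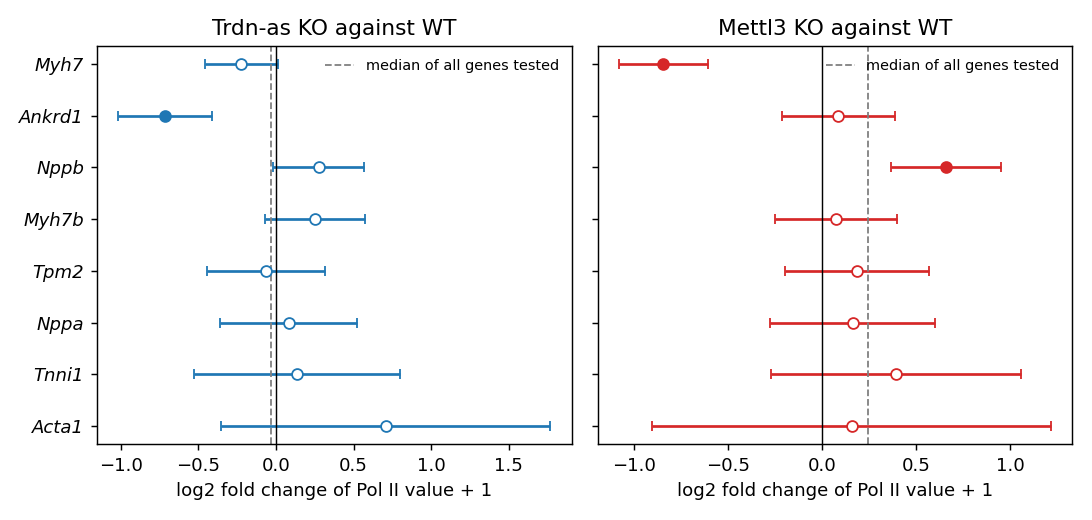
Log2 fold change of the summed Pol II value (+ 1) against WT (x axis) for 8 genes (y axis) in *Trdn-as* KO (left) and *Mettl3* KO (right), with 95% intervals from limma over 6 libraries. Filled points passed the test at an adjusted p of 0.05, and the dashed line is the median of all 12442 gene sums, at -0.034 and 0.25. *Ankrd1* was called on the left, and *Myh7* and *Nppb* on the right.

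Of the 28 member peaks tested for Pol II, 2 were called in *Trdn-as* KO against WT, both lower, where 0.304% of the 52655 peaks tested were called. In *Mettl3* KO against WT it was 1 higher and 1 lower, beside 1.19% of all peaks, and between the knockouts 2 higher and 1 lower in *Mettl3* KO, beside 1.5%. The median log2 fold change of the members was 0.041 in *Trdn-as* KO and -0.14 in *Mettl3* KO, beside -0.070 and 0.076 for all peaks. Both *Trdn-as* KO libraries lay above both WT libraries at 7 member peaks and below them at 5, beside 6778 and 10051 of the 52655. In *Mettl3* KO it was 7 and 9, beside 16428 and 10287. Over gene sums, 1 of 8 members was called in *Trdn-as* KO (0.354% of all 12442 genes) and 2 of 8 in *Mettl3* KO (3.98%). *Myh7* and *Ankrd1* were also called between the knockouts (6.09% of all genes). The gene sums of *Myh7*, *Nppb* and *Ankrd1* are each 1 peak, so these calls repeat those of the peaks. The called genes went both ways, and the remaining genes did not pass the test.

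*Myh7b* encodes a slow-tonic myosin and hosts miR-499. Its 16 peaks ran from the promoter to the 3′ part, 7 of them carrying the identifier of another gene, without a symbol, and 5 no gene. The peak over the start site (chr2:155452715-155454418) had Pol II values of 323 and 287 (WT), 366 and 348 (*Trdn-as* KO) and 386 and 303 (*Mettl3* KO). *Trdn-as* KO lay above WT without overlap, as at 6778 of all 52655 peaks, and *Mettl3* KO overlapped. The log2 fold changes of the gene sum were 0.25 (95% interval -0.074 to 0.57) and 0.075 (95% interval -0.25 to 0.40). With uniquely mapped reads as library size these turned to -0.35 and -0.065. The other 15 peaks had Pol II values of 0 to 149. In WT, CTCF was highest at chr2:155468616-155469647, with 99 and 90 (WT), 93 and 102 (*Trdn-as* KO) and 95 and 88 (*Mettl3* KO), where Pol II was only 20 to 34. In both knockouts the peak at chr2:155461515-155462512 had the higher mean, with CTCF values of 84 and 85 (WT), 98 and 104 (*Trdn-as* KO) and 88 and 96 (*Mettl3* KO).

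*Tpm2* encodes beta-tropomyosin. Its strongest peak (chr4:43522706-43523889), at the start site, had Pol II values of 113 and 141 (WT), 135 and 102 (*Trdn-as* KO) and 143 and 144 (*Mettl3* KO). *Trdn-as* KO overlapped with WT. Both *Mettl3* KO libraries lay just above it, and 16428 of all 52655 peaks had both above WT. The gene sum differed by -0.064 (95% interval -0.45 to 0.32) and 0.18 (95% interval -0.20 to 0.57). Its highest CTCF peak (chr4:43527851-43529034) had 32 and 39 (WT), 43 and 34 (*Trdn-as* KO) and 38 and 37 (*Mettl3* KO).

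*Acta1* had 1 narrow peak over its start site (chr8:124621297-124621603), with Pol II values of 8 and 19 (WT), 31 and 14 (*Trdn-as* KO) and 15 and 13 (*Mettl3* KO). The groups overlapped, CTCF was 0 to 2, and the 95% intervals of the log2 fold change were -0.35 to 1.77 (*Trdn-as* KO) and -0.90 to 1.22 (*Mettl3* KO). Neither interval excluded 0, and both were wide.

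*Tnni1*, the slow skeletal and fetal troponin I, had the least Pol II and the most CTCF per kb of the 8 genes. Its strongest peak in both measures (chr1:135715113-135717047), inside the gene, had CTCF values of 121 and 141 (WT), 168 and 134 (*Trdn-as* KO) and 147 and 150 (*Mettl3* KO), and Pol II values of 19 and 21, 29 and 37, and 25 and 26. Scaled to uniquely mapped reads, Pol II over IgG was there only 1.93-fold in WT, 0.761-fold in *Trdn-as* KO and 2.18-fold in *Mettl3* KO, so Pol II stood little above IgG, and below it in *Trdn-as* KO. A further pair of peaks in *Tnni1* had CTCF values of 104 to 121 and 102 to 126, and the other 6 had 1 to 9. The gene sum of Pol II was 31 and 47 (WT), 36 and 49 (*Trdn-as* KO) and 41 and 62 (*Mettl3* KO), with log2 fold changes of 0.13 (95% interval -0.53 to 0.80) and 0.39 (95% interval -0.27 to 1.06).

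For CTCF, 19 member peaks were tested and 0 were called by limma in any comparison, beside 0.587% of 60649 peaks in *Trdn-as* KO against WT, 0.185% in *Mettl3* KO against WT and 1.37% between the knockouts. At an unadjusted p under 0.05 there were 2, 0 and 3 members, beside 10.2%, 15.7% and 18.8% of all peaks. The log2 fold changes of the members lay between -0.28 and 0.38 in *Trdn-as* KO and between -0.12 and 0.29 in *Mettl3* KO. The plot of both per kb of peak shows how they were spread over the members: *Myh7b* had strong Pol II at its start site and strong CTCF at other peaks.

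**Figure D4:**
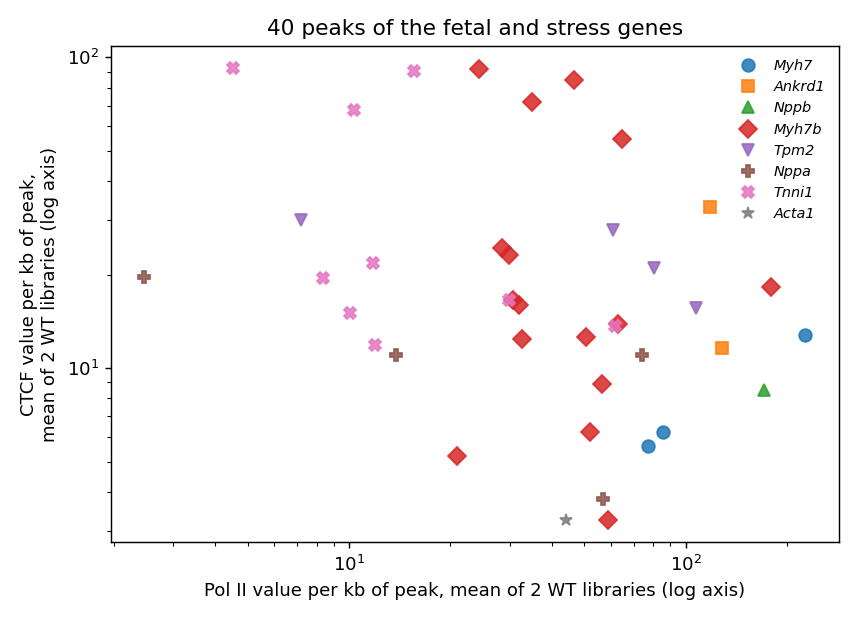
Mean WT Pol II value (x axis) and mean WT CTCF value (y axis), both per kb of peak on log scales, with 1 point for each of the 40 peaks and a symbol for each gene. The promoter peak of *Myh7* has the most Pol II, and peaks of *Tnni1* and *Myh7b* have the most CTCF.

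*Myl4* and *Myl7*, the light chains of the atria and the fetal heart, had no peak annotated with their symbol. Between *Cdc27* and *Itgb3*, the neighbours of *Myl4*, there were 5 peaks without a symbol, with Pol II values of 0 to 16. The promoter peak of *Cdc27*, which starts next to *Myl4*, had 192 and 196 (WT), 199 and 138 (*Trdn-as* KO) and 175 and 154 (*Mettl3* KO). Between *Pold2* and *Ykt6*, the neighbours of *Myl7*, there were 5 peaks without a symbol with Pol II values of 0 to 217, the highest of them at chr11:5864805-5866800. As the intervals of *Myl4* and *Myl7* were not given in the file, these peaks were not assigned, and their ratios to *Myl3* and *Myl2* were not formed.

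Of the adult isoforms, 12 of 12 genes were tested and none was called by limma in either knockout against WT, with medians of -0.049 in *Trdn-as* KO and 0.045 in *Mettl3* KO beside -0.034 and 0.25 for all genes. At an unadjusted p under 0.05 there were 3 and 2, where 5.61% and 25% of all genes had such a p. Between the knockouts the median log2 fold change of all gene sums was 0.28, and 0.011 after quantile normalization, and calls were 694 higher and 64 lower against 285 and 492, so the differences between the knockouts given here stand beside that general shift. Of the 12 adult isoforms, 1 was called between the knockouts, beside 6.09% of all genes. This was *Myh6*, higher in *Mettl3* KO than in *Trdn-as* KO by 0.39 (adjusted p = 0.011). Of the natriuretic peptide pathway, 10 of 11 genes were tested and 2 were called in *Mettl3* KO against WT, beside 3.98% of all genes. At an unadjusted p under 0.05 there were 6, beside 25% of all genes. *Corin*, the protease that activates pro-ANP, had 665 and 700 (WT) and 473 and 461 (*Mettl3* KO) and fell by 0.55 on the log2 scale (adjusted p = 0.026). *Pcsk6*, a proprotein convertase that activates corin, had 59 and 61 (WT) and 111 and 107 (*Mettl3* KO) and rose by 0.85 (adjusted p = 0.037). None of the pathway was called by limma in *Trdn-as* KO against WT, where 2 had an unadjusted p under 0.05, beside 5.61% of all genes. The medians were 0.073 in *Trdn-as* KO and 0.45 in *Mettl3* KO. Between the knockouts 2 of the 10 were called, beside 6.09% of all genes. These were *Pde9a*, a cGMP phosphodiesterase, and *Prkg1*, the cGMP-dependent kinase, higher in *Mettl3* KO by 0.98 (adjusted p = 0.0030) and 0.69 (adjusted p = 0.0065).

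Of 18 other stress and fetal genes, 15 were tested and none was called by limma against WT in either knockout, with medians of -0.051 and -0.043. At an unadjusted p under 0.05 there were 1 and 3, beside 5.61% and 25% of all genes. Between the knockouts 1 of the 15 was called, beside 6.09% of all genes. This was *Ccn2*, a matrix protein of fibrosis, higher in *Mettl3* KO by 0.48 (adjusted p = 0.049), with 516 and 530 (WT), 508 and 444 (*Trdn-as* KO) and 693 and 635 (*Mettl3* KO). Of 22 regulators of the fetal program, 21 were tested and none was called by limma against WT, with medians of -0.039 and 0.16. Here too 1 and 3 had an unadjusted p under 0.05, beside the same 5.61% and 25%. Between the knockouts 1 of the 21 was called, beside 6.09% of all genes. This was *Nfatc4*, a calcineurin-dependent transcription factor, higher in *Mettl3* KO than in *Trdn-as* KO by 0.60 (adjusted p = 0.026). 

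The genes whose pattern over the 6 Pol II libraries was most like that of the leading members were found among 9031 genes by the root mean square difference of centred log2 sums. For *Myh7* they were *Dbp* (0.081), *Cry1* (0.093) and *Usp2* (0.094), with *Dbp* at 3291 and 3501 (WT), 3267 and 2482 (*Trdn-as* KO) and 1710 and 1650 (*Mettl3* KO). For *Nppb* they were *Dapk1* (0.025), *Ralgapb* (0.030) and *Wrn* (0.032). For *Ankrd1* they were *Myom2* (0.066), *Rab6b* (0.091) and *Gbp2* (0.094), with *Myom2* at 562 and 641 (WT), 462 and 318 (*Trdn-as* KO) and 618 and 589 (*Mettl3* KO).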

How the data were processed

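The members and gene lists were chosen with earlier results of these data known. Per the labels and methods, the authors trimmed reads with Trimmomatic 0.39, aligned them to mm39 with STAR 2.7.11b, removed duplicates with Picard 3.1.1, called peaks with MACS, merged them, counted reads with featureCounts and normalized with DESeq2 1.36.0 (versions from the submitters' processing notes). Each peak within 5000 nt of a start site carries that gene. The deposited values are normalized scores rounded to whole numbers, not counts. The design allowed for counts, and the test it named for other units was used. The 3 input libraries were not analysed here.

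Peaks, or sums of peaks by symbol, that reached 10 in 2 or more of the 6 libraries were tested with limma 3.58.1 in R 4.3.3 on log2(value + 1), fitting 3 genotype means and a mean-variance trend, and p-values were adjusted by Benjamini-Hochberg (threshold 0.05). On simulated Pol II values of 51693 peaks, 30% of the peaks shifted by 1 on the log2 scale and 98% of those shifted by 2 were recovered, with 3 false calls. For CTCF (60294 peaks) it was 33% and 100%, with 0. The simulation had 1 fixed spread, changed 200 of the stronger peaks, and held no difference in enrichment and no general shift between libraries. Its false calls are therefore no measure of those in the real libraries. Reads were estimated from the spacing of values, with an error of at most 0.00819% on simulated data. A CTCF read is worth less than 1, so its read numbers are estimates. Ratios used exact permutation tests in scipy 1.17.1. Promoter and microRNA sequences are from RefSeq tables of GRCm38.p6, in which all 10 genes matched, while peak coordinates are GRCm39.

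For each gene, the peaks with the most Pol II and the most CTCF in WT and all called peaks were named, and of each list up to 3 called genes. The further *Myh7* and *Tnni1* peaks, the start-site peak of *Nppa* and the *Cdc27* peak were chosen after their values were seen. Alternatives covered scaling, pseudocount, filter, trend, genotypes fitted, a replicate block and leaving out each library.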

Additional observations from a re-analysis of the deposited data

How the results depend on the processing

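The fall of *Myh7* and the rise of *Nppb* in *Mettl3* KO against WT and the fall of *Ankrd1* in *Trdn-as* KO against WT kept their direction in the settings run, while most calls depended on the setting. The *Myh7* gene sum in *Mettl3* KO against WT, which is 1 peak, was still called without any 1 library, but that peak was not when tested among peaks. With uniquely mapped reads as library size, without the filter, or without the variance trend, 0 member peaks and 0 member gene sums were called for Pol II in any comparison. With only the 2 genotypes compared, it was 0 peaks and 0 gene sums in *Trdn-as* KO against WT, 4 peaks in *Mettl3* KO against WT and 0 peaks between the knockouts. Median-of-ratios scaling gave 5 peaks in *Mettl3* KO against WT, 2 gene sums in *Trdn-as* KO against WT and 4 between the knockouts, and quantile normalization gave 4 peaks and 2 gene sums in the first and second of these. Peaks with a member symbol alone gave 1 call in *Trdn-as* KO against WT. The cause of these changes was not tested. Leaving out 1 library gave 0 to 3 peaks in *Trdn-as* KO against WT, 0 to 0 in *Mettl3* KO against WT and 0 to 4 between the knockouts, and 0 to 2, 1 to 1 and 0 to 4 gene sums. No CTCF call of a member was made in any setting. Over the whole table, calls of gene sums in *Mettl3* KO against WT ran from 2 to 5556 (495 as reported, 414 higher and 81 lower, against 374 and 587 after quantile normalization), in *Trdn-as* KO against WT from 6 to 2701 (44 as reported) and between the knockouts from 23 to 7867 (758). For peaks they ran from 2 to 2185 (160), 0 to 4861 (629) and 1 to 9789 (790) for Pol II and from 1 to 503 (356), 0 to 761 (112) and 1 to 1273 (828) for CTCF. Scaling by uniquely mapped reads moved the median of all gene sums in *Trdn-as* KO against WT from -0.034 to -0.63. Under it, uncalled gene sums turned to -0.52 for *Nppa*, -0.33 for *Nppb*, -0.35 for *Myh7b* and -0.45 for *Tnni1* in *Trdn-as* KO, and to -0.065 for *Myh7b* and -0.053 for *Ankrd1* in *Mettl3* KO. The *Nppb* and *Ankrd1* start peaks turned likewise (-0.33 and -0.053). Quantile normalization turned *Nppa* (-0.099), *Myh7b* (-0.18), *Ankrd1* (-0.086, and -0.11 at its start peak) and *Tpm2* (-0.079) in *Mettl3* KO, and median-of-ratios scaling turned *Myh7b* (-0.0018). Without 1 library, values that were not called crossed 0. In *Trdn-as* KO they ran from -0.16 to 0.43 for *Tnni1*, from -0.22 to 0.094 for *Tpm2*, from -0.65 to 0.097 at chr14:55221763-55223011 in *Myh7* and from -0.027 to 0.25 for CTCF at the *Ankrd1* start. In *Mettl3* KO they reached -0.068 for *Nppa*, -0.052 for *Myh7b* and -0.028 for *Ankrd1*, and ran from -0.42 to 0.73 for *Acta1* and from -0.090 to 0.14 for CTCF at the *Myh7* promoter. The *Tnni1*/*Tnni3* ratio in *Trdn-as* KO turned to 0.077 with only the highest peak of each gene and ran from -0.47 to 0.40 without 1 library (0.20 without the second WT library), and *Acta1*/*Actc1* in *Mettl3* KO ran from -0.28 to 0.83. Same-numbered libraries did not deviate together (correlations of -0.0096 to -0.0002 for Pol II), so they share only a number. With a replicate block, 2 member peaks were called in *Trdn-as* KO against WT, 2 in *Mettl3* KO against WT and 3 between the knockouts, as without it. Over the whole table the block turned 414 higher and 81 lower gene sums in *Mettl3* KO against WT into 242 and 58, and left 1 higher and 1 lower CTCF peak there. For CTCF the correlation between WT and *Trdn-as* KO was -0.24, and a crossed block, chosen after seeing the data, called 503 peaks against 236 with the block, 0 of them members in both. The exact test of 2 against 2 libraries has a smallest p of 0.33, and without 1 library the remaining one is assumed to vary like the other groups. A count of 0 allows up to 3 reads, and intervals cover no error beyond these libraries.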
